A study of Sus scrofa with 9 samples.

Results

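The 9 genes described here carry iron into the mitochondrion and build iron-sulfur clusters there: the mitoferrins SLC25A37 and SLC25A28, the cysteine desulfurase NFS1, the scaffold ISCU, the co-chaperone HSCB, the glutaredoxin GLRX5 and the late-acting factors ISCA1, ISCA2 and NFU1. They were chosen by name and function and were 9 of the 25918 genes in the table, which held 20660 annotated and 5258 newly assembled genes. Their mRNA levels were measured by RNA sequencing in the livers of Wujin piglets, a Chinese local breed. Piglets aged 35 days were prefed for 5 days and then fed for 30 days on 1 of 3 diets: the low-iron group (3 libraries, animals 2, 3 and 7) received no added iron, the control group (3 libraries, animals 4, 5 and 6) 100 mg/kg and the high-iron group (3 libraries, animals 2, 7 and 8) 200 mg/kg. Each library came from 1 animal. The iron was added as iron glycinate to a basic diet that all groups ate, and the low-iron group received that diet alone, which held iron of its own by the composition the study calculated. The comparison asks whether the mRNAs of the mitochondrial iron-sulfur machinery differ with dietary iron. Values are FPKM (fragments scaled to transcript length and to the mapped fragments of the library), so levels can be compared between genes.

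Iron enters the mitochondrial matrix through the mitoferrins, of which SLC25A37 (mitoferrin-1) is best known from developing red cells and SLC25A28 (mitoferrin-2) from other tissues. In the matrix NFS1 takes sulfur from cysteine and passes it to ISCU, on which the first cluster is built from that sulfur and the imported iron. HSCB and the chaperone HSPA9 release the cluster to GLRX5, and ISCA1, ISCA2 and NFU1 convert it to larger clusters and hand them to proteins such as aconitase, the respiratory chain and lipoate synthase. The liver has many mitochondria and depends on these clusters for energy metabolism, and its iron-regulatory protein IRP1 is itself a cluster protein.

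All 9 genes lay on the Sscrofa11.1 build, 4 of them on chromosome 14. SLC25A37 (chr14:7665002-7709998, plus strand) had 1 annotated transcript of 4395 bases in 5 exons, and SLC25A28 (chr14:110795304-110805631, minus strand) had 2 transcripts. ISCU (chr14:42216103-42222570, minus strand) overlapped the antisense non-coding gene LOC106507249 over 5181 of its 6468 bases. ISCA2 (chr7:97740479-97746491, plus strand) overlapped LTBP2 on the other strand over 1518 of its 6013 bases. The sources used here do not state whether the libraries kept strand information, so reads of these overlapping pairs may not be told apart and the levels of ISCU and ISCA2 are uncertain to that extent. LTBP2, a matrix protein gene, was listed at 0.311 to 1.99 FPKM. The other members were HSCB (chr14:45967460-45980632, plus strand), NFS1 (chr17:39000659-39029179, minus strand), GLRX5 (chr7:116787346-116797477, plus strand), ISCA1 (chr10:29066135-29082704, plus strand) and NFU1 (chr3:72983075-73013227, plus strand).

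The promoters of SLC25A28 and of the highest and the lowest member are shown because these genes enter the comparisons of level that follow. Each run is the 250 bases before the annotated gene start in the RefSeq annotation, 5′ to 3′ on the gene's own strand. It holds no base of that gene as annotated, and transcripts of other genes across it were not looked for. Capitals mark matches, on either strand, to the GC box GGGCGG, the NRF1 core TGCGCA or the GATA motif AGATAA. The stretches are chr14:110805632-110805881 (SLC25A28), chr14:42222571-42222820 (ISCU) and chr7:97740229-97740478 (ISCA2).
SLC25A28: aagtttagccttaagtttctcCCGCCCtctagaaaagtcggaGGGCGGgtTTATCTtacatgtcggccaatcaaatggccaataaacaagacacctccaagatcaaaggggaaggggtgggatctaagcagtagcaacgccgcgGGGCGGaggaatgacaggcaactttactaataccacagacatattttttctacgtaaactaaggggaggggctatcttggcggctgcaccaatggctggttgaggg
ISCU: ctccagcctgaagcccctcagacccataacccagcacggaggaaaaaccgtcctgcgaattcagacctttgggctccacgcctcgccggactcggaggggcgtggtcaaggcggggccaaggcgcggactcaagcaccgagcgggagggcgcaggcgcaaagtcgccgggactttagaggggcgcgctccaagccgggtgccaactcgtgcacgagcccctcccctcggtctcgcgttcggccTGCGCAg
ISCA2: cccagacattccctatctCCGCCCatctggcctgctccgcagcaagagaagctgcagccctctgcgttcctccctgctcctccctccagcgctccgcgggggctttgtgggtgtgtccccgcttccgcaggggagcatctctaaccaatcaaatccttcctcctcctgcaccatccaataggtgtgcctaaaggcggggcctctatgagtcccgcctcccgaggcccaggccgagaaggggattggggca

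Of the stretches printed, SLC25A28 held 3 GC boxes and a GATA motif, ISCU an NRF1 core a single base from the gene start, and ISCA2 a GC box. Over all 9 members, GGGCGG was present in 6, against 44.5% of 20650 promoters of the same length. TGCGCA was present in 2 (ISCU and ISCA1), against 6.71%, and AGATAA in 1 (SLC25A28), against 8.63%. The ETS motif CCGGAAG was present in 1 (NFS1), against 7.48%, and the TATA box TATAAA in 0, against 10.4%. The ISCU stretch had 27 CpG dinucleotides and a GC content of 68.4%, while the SLC25A28 stretch had 10 and 50.0%, beside medians of 11 and 57.2% over all promoters. A match describes these letters only.

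The tissue label was checked first. The 7 hepatocyte marker genes (8 rows of the table, since transferrin has 2) summed to between 69417 and 93219 FPKM in every library, and all were present. ALB alone was at 46231 to 74134 FPKM. CPS1, the urea cycle enzyme, was lower in high-iron than in control (log2 difference -0.88, 95% interval -1.42 to -0.35, limma adjusted p = 0.885), without overlap, and lower than in low-iron (-0.57, 95% interval -1.11 to -0.04, limma adjusted p = 0.686), both past an unadjusted p under 0.05. CPS1 was the only 1 of the 8 rows past that level in either comparison. Of the 8 rows, 3 were above 0 and 5 below in high-iron against control. In high-iron against low-iron, 2 were above 0 and 6 below. Over all genes tested, 65.0% and 53.6% were above 0 in these 2 comparisons, and 10.9% did not overlap in high-iron against control. The sum of FPKM over all genes was 416922 to 456420, and 16235 to 17817 genes were above 0. The deposited FPKM carry no read counts, so the depth behind each value is not known from them and no counting interval is given. The libraries were bulk tissue, in which fewer cells of a type and less RNA per cell cannot be told apart. All 9 members passed the filter of a mean of at least 0.5 FPKM, as did 12584 genes in all.

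The members spanned an 85.3-fold range of mean level over the 9 libraries. ISCU was the highest at 108 FPKM, above 96.1% of the genes tested, and was followed by GLRX5 (59.3), NFS1 (26.3), ISCA1 (20.01), NFU1 (14.0), SLC25A28 (10.6), HSCB (6.81) and SLC25A37 (5.54). ISCA2 was the lowest at 1.26 FPKM, above 16.4% of the genes tested. Within a library the order was steady: ISCU exceeded GLRX5, GLRX5 exceeded NFS1, ISCA1 exceeded NFU1, NFU1 exceeded SLC25A28, SLC25A28 exceeded HSCB and SLC25A37 exceeded ISCA2 in 9 of 9 libraries. NFS1 exceeded ISCA1 in 8 of 9, and HSCB exceeded SLC25A37 in only 5 of 9, so this last pair had no fixed order. Across libraries the ranges of neighbours overlapped in every pair but GLRX5 and NFS1, and SLC25A37 and ISCA2. Animals of the same group varied least for SLC25A37 (coefficient of variation 14.1%) and most for HSCB (38.6%), beside a median of 23.8% over all genes tested.

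The study called a gene at a 2-fold or larger difference with a p under 0.05. No member met that criterion in any comparison, and none had an unadjusted p under 0.05. Of all genes tested, 0.882% met that criterion in low-iron against control, 1.57% in high-iron against control and 1.54% in high-iron against low-iron. At an unadjusted p under 0.05 alone the shares were 3.68%, 5.59% and 7.15%. The test was limma's on log2(FPKM + 0.1), which understates the change of low genes, and the smallest p of a member was 0.117 (SLC25A28, high-iron against low-iron). Adjusted over all genes by the Benjamini-Hochberg method, the members' limma p values were 0.774 or more, while 0.00795% of all genes were under 0.05 in high-iron against control and 0% in the other two comparisons. An exact permutation test of all 3 groups gave p from 0.229 (SLC25A28) to 0.939. That test could reach 0.00357, whereas 3 animals against 3 cannot go below 0.1 by exact permutation.

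These results bound the differences as well. All 27 of the 95% intervals of the log2 difference (9 genes in 3 comparisons) contained 0, and 26 of the 27 lay within 1 log2 unit, that is, within a 2-fold difference either way. The exception was HSCB in high-iron against low-iron, whose interval ran from -0.68 to 1.07. Differences smaller than 2-fold were not excluded by these intervals, whose standard errors ran from 0.20 to 0.39.

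**Figure D1:**
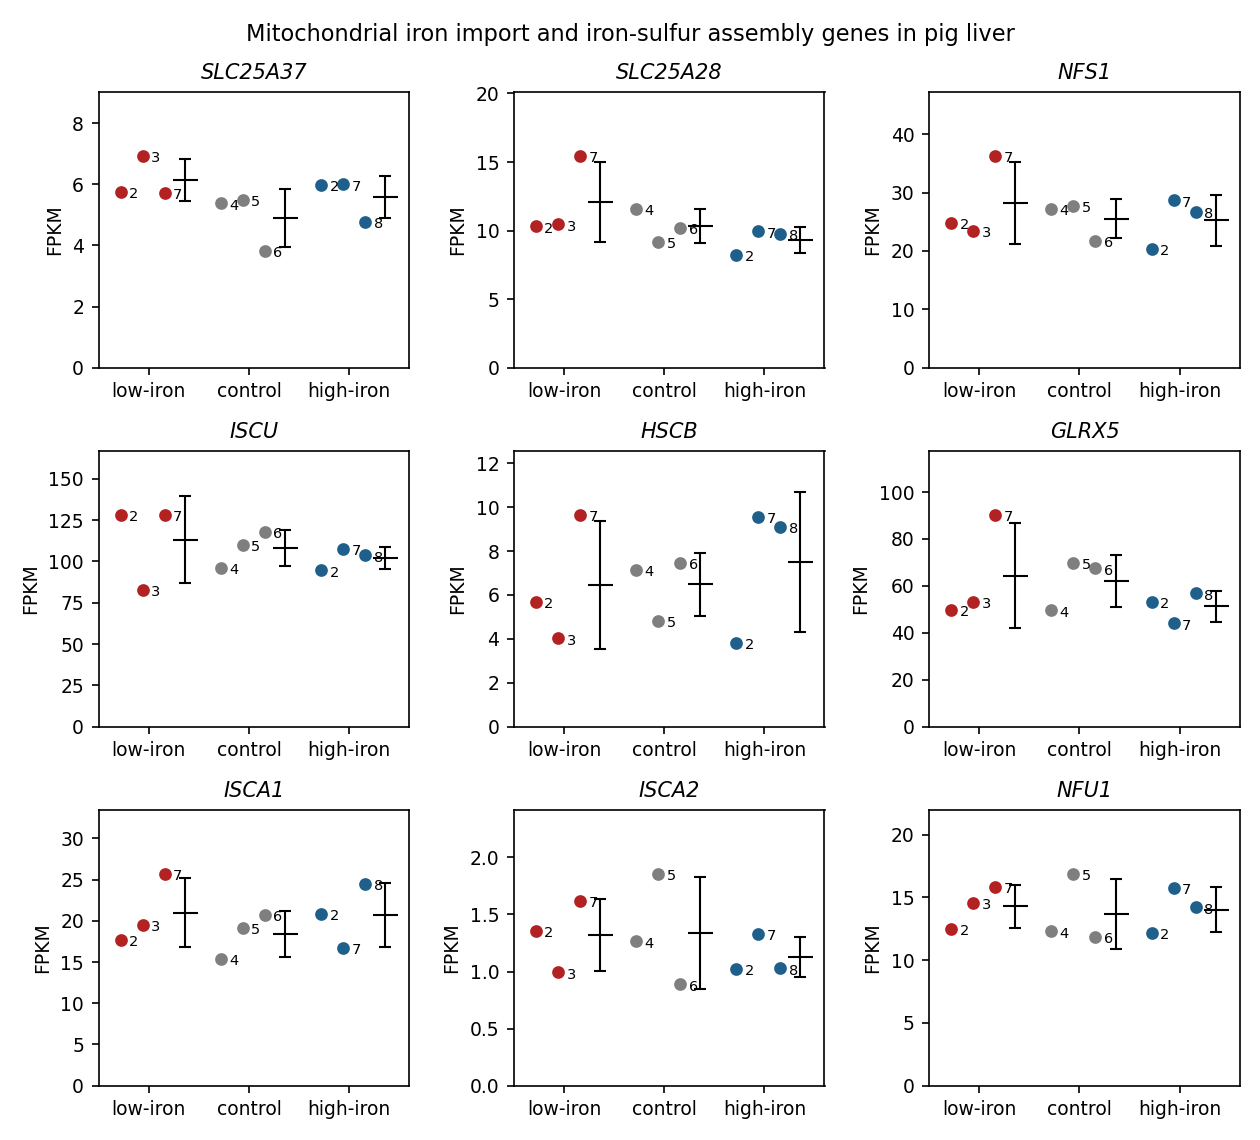
FPKM (vertical axis, linear from 0) of each of the 9 members in the 9 liver libraries, by diet group (horizontal axis). Points are single animals with their number, and the bar beside them is the group mean with 1 SD (n = 3). Low-iron animal 7 is the highest point for SLC25A28, NFS1, HSCB, GLRX5 and ISCA1, and for ISCU by a small margin over low-iron animal 2. The groups overlap in most panels.

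The 2 mitoferrins carry iron across the inner membrane. SLC25A37 was at 5.76, 6.94 and 5.72 FPKM in the low-iron animals, 5.37, 5.49 and 3.82 in the controls, and 5.98, 5.99 and 4.78 in the high-iron animals. All 3 low-iron values lay above all 3 control values, while the high-iron values overlapped both groups. The group means were 6.14 ± 0.693, 4.90 ± 0.934 and 5.59 ± 0.698 FPKM (SD, n = 3 each). The log2 difference of low-iron from control was 0.33 (SE 0.21, 95% interval -0.12 to 0.79, limma p = 0.135, adjusted p = 0.9998), and the exact permutation p was 0.1, the smallest possible. SLC25A37 was the only member without overlap in that comparison, in which 8.34% of all genes tested did not overlap. High-iron differed from control by 0.20 (95% interval -0.26 to 0.65) and from low-iron by -0.14 (95% interval -0.59 to 0.32). Control animal 6, at 3.82 FPKM, was the lowest of the 9 libraries, and without it low-iron differed from control by 0.17. The difference reached 0.42 without control animal 5.

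SLC25A28 was at 10.3, 10.4 and 15.5 FPKM in the low-iron animals, 11.6, 9.20 and 10.2 in the controls, and 8.24, 9.94 and 9.77 in the high-iron animals. Every high-iron value lay below every low-iron value, and the controls overlapped both. The means were 12.1 ± 2.94, 10.3 ± 1.21 and 9.32 ± 0.936 FPKM (SD, n = 3 each). High-iron differed from low-iron by -0.35 on the log2 scale (SE 0.20, 95% interval -0.80 to 0.10, limma p = 0.117, adjusted p = 0.774, exact permutation p = 0.1). It was the only member without overlap between these groups, beside 13.2% of all genes tested. The difference was -0.16 without low-iron animal 7 and -0.40 with median-of-ratios scaling, where its unadjusted limma p was 0.0477 and the smallest adjusted p of a member 0.635. Low-iron differed from control by 0.20 (95% interval -0.25 to 0.65), or by 0.012 without low-iron animal 7, and high-iron from control by -0.15 (95% interval -0.60 to 0.31).

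The level of mitoferrin-2 exceeded that of mitoferrin-1 in every library, by 1.38 to 2.70 times in FPKM (median 1.79). The annotated transcript of SLC25A37, at 4395 bases, was longer than those of SLC25A28 (1348 to 1584 bases). FPKM divides by that length, so the size of the ratio depends on the annotated lengths. The ratio averaged 1.9996 ± 0.627 in the low-iron, 2.17 ± 0.498 in the control and 1.69 ± 0.334 in the high-iron group (SD, n = 3 each). An exact permutation test of the log2 ratio over the 3 groups gave p = 0.496. The spread of the ratio within the groups was as wide as the differences between them.

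NFS1 and ISCU form the site where the first cluster is made. NFS1, the sulfur donor, was at 24.9, 23.4 and 36.3 FPKM in the low-iron animals, 27.2, 27.7 and 21.7 in the controls, and 20.4, 28.7 and 26.7 in the high-iron animals. All 3 groups overlapped, with means of 28.2 ± 7.07, 25.6 ± 3.32 and 25.3 ± 4.31 FPKM (SD, n = 3 each). The log2 differences were 0.12 (95% interval -0.36 to 0.61) for low-iron against control, -0.02 (-0.51 to 0.46) for high-iron against control and -0.15 (-0.63 to 0.34) for high-iron against low-iron.

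ISCU, the scaffold, was at 128, 82.7 and 128 FPKM in the low-iron animals, 96.3, 110 and 118 in the controls, and 94.7, 107 and 104 in the high-iron animals. Both the highest and the lowest of the 9 values were in the low-iron group, whose mean of 113 ± 26.3 FPKM stood beside 108 ± 10.9 in the controls and 102 ± 6.58 in the high-iron group (SD, n = 3 each). Its log2 differences were 0.04 (95% interval -0.41 to 0.50) for low-iron against control, -0.08 (-0.53 to 0.37) for high-iron against control and -0.12 (-0.58 to 0.33) for high-iron against low-iron.

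HSCB and GLRX5 take the cluster off the scaffold and pass it on. HSCB was at 5.68, 4.02 and 9.66 FPKM in the low-iron animals, 7.15, 4.82 and 7.46 in the controls, and 3.82, 9.57 and 9.10 in the high-iron animals. High and low values occurred in every group, and the means of 6.45 ± 2.90, 6.48 ± 1.45 and 7.49 ± 3.19 FPKM (SD, n = 3 each) lay well within that spread. The log2 differences were -0.07 (95% interval -0.95 to 0.80) for low-iron against control, 0.12 (-0.75 to 1.00) for high-iron against control and 0.19 for high-iron against low-iron. That last value was larger without the pair of libraries that stood apart within their groups. With low-iron animal 7 and high-iron animal 2 both left out, it was 0.95 (SE 0.29), a setting chosen after the values were seen.

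GLRX5 was at 49.8, 53.0 and 90.4 FPKM in the low-iron animals, 49.5, 69.7 and 67.5 in the controls, and 53.1, 44.0 and 56.8 in the high-iron animals. The low-iron mean of 64.4 ± 22.5 FPKM included the high value of animal 7, and the control and high-iron means were 62.2 ± 11.08 and 51.3 ± 6.59 (SD, n = 3 each). The log2 differences were 0.01 (95% interval -0.54 to 0.56) for low-iron against control, -0.27 (-0.82 to 0.28) for high-iron against control and -0.28 (-0.83 to 0.27) for high-iron against low-iron. The first of these was -0.26 without low-iron animal 7.

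ISCA1, ISCA2 and NFU1 act late, on the clusters that aconitase, complex I and lipoate synthase need. ISCA1 was at 17.7, 19.5 and 25.7 FPKM in the low-iron animals, 15.4, 19.2 and 20.7 in the controls, and 20.8, 16.7 and 24.5 in the high-iron animals. The groups overlapped, with means of 21.0 ± 4.199, 18.4 ± 2.74 and 20.7 ± 3.89 FPKM (SD, n = 3 each). The log2 differences were 0.18 (95% interval -0.29 to 0.66) for low-iron against control, 0.16 (-0.31 to 0.63) for high-iron against control and -0.02 (-0.50 to 0.45) for high-iron against low-iron.

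ISCA2, the partner of ISCA1, was at 1.36, 0.992 and 1.62 FPKM in the low-iron animals, 1.26, 1.86 and 0.887 in the controls, and 1.02, 1.33 and 1.03 in the high-iron animals. The control group held both the highest and the lowest value. The means were 1.32 ± 0.316, 1.34 ± 0.489 and 1.13 ± 0.176 FPKM (SD, n = 3 each), and the log2 differences were 0.02 (95% interval -0.71 to 0.75), -0.18 (-0.91 to 0.55) and -0.20 (-0.93 to 0.53) in the same order of comparisons. Though the proteins work together, ISCA1 mRNA was 10.3 to 23.8 times the level of ISCA2 mRNA (median 15.9). The annotated transcript of ISCA2, at 4970 bases, was longer than those of ISCA1 (2484 to 2554 bases), and FPKM divides by that length. The ratio averaged 16.2 ± 3.32 in the low-iron, 15.3 ± 7.03 in the control and 18.9 ± 5.78 in the high-iron group (SD, n = 3 each), with an exact permutation p of 0.643 over the groups.

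NFU1, which delivers clusters to lipoate synthase among others, was at 12.5, 14.6 and 15.8 FPKM in the low-iron animals, 12.3, 16.9 and 11.8 in the controls, and 12.1, 15.7 and 14.2 in the high-iron animals. The means of 14.3 ± 1.69, 13.7 ± 2.79 and 14.0 ± 1.80 FPKM (SD, n = 3 each) differed by less than the spread within the groups. The log2 differences were 0.07 (95% interval -0.36 to 0.51), 0.05 (-0.39 to 0.48) and -0.03 (-0.47 to 0.41).

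**Figure D2:**
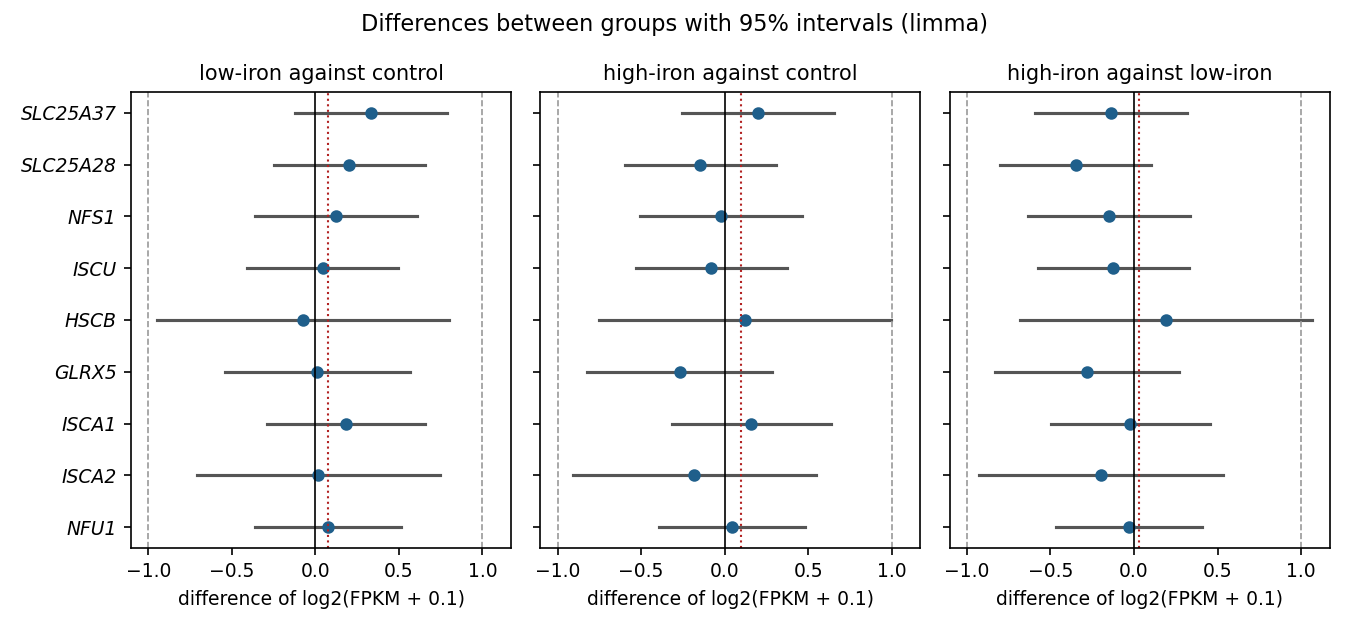
Log2 differences (horizontal axis) of the 9 members (vertical axis) in the 3 comparisons, with 95% limma intervals as bars. All 27 intervals contain 0, and only that of HSCB in high-iron against low-iron, from -0.68 to 1.07, passes a 2-fold difference.

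As a set, 8 of 9 members were above 0 in low-iron against control (median log2 difference 0.07), 4 of 9 in high-iron against control (median -0.02) and 1 of 9 in high-iron against low-iron (median -0.14). Over all genes tested, the medians were 0.08, 0.10 and 0.03, and the shares above 0 were 62.7%, 65.0% and 53.6%. The low-iron median of the members was thus near that of all genes. The signs depended on the scaling and on single libraries. In low-iron against control, 4 of 9 were above 0 with median-of-ratios scaling (median -0.0067) and 4 of 9 after quantile normalization (median -0.021), and in high-iron against control 2 of 9 (median -0.15) and 3 of 9 (median -0.074). Without low-iron animal 3, 9 of 9 were above 0 in low-iron against control (median 0.22) and 0 of 9 in high-iron against low-iron (median -0.27). Without low-iron animal 7, 3 of 9 members were above 0 in low-iron against control (median -0.06) and 4 of 9 in high-iron against low-iron (median -0.01). The median in high-iron against control was 0.12 without high-iron animal 2 (5 of 9 above 0) and -0.12 without high-iron animal 7 (2 of 9). Without both low-iron animal 7 and high-iron animal 2, 6 of 9 were above 0 in high-iron against low-iron (median 0.04).

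Low-iron animal 7 was above the mean of the 9 libraries for 9 of 9 members, with a median log2 deviation of 0.38, while all genes tested had a median of 0.08 there. It held the highest value of 6 members, beside 17.0% of all genes tested. The exceptions were SLC25A37, ISCA2 and NFU1. High-iron animal 2 had a median deviation of -0.19 over the members and -0.06 over all genes, and it held the lowest value of 3 members (SLC25A28, NFS1 and HSCB), beside 18.1% of all genes. The 10 genes of mitochondrial proteins without such clusters moved with both libraries, with median deviations of 0.31 in low-iron animal 7 and -0.36 in high-iron animal 2. The part of mitochondrial content in the members' values was not tested.

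**Figure D3:**
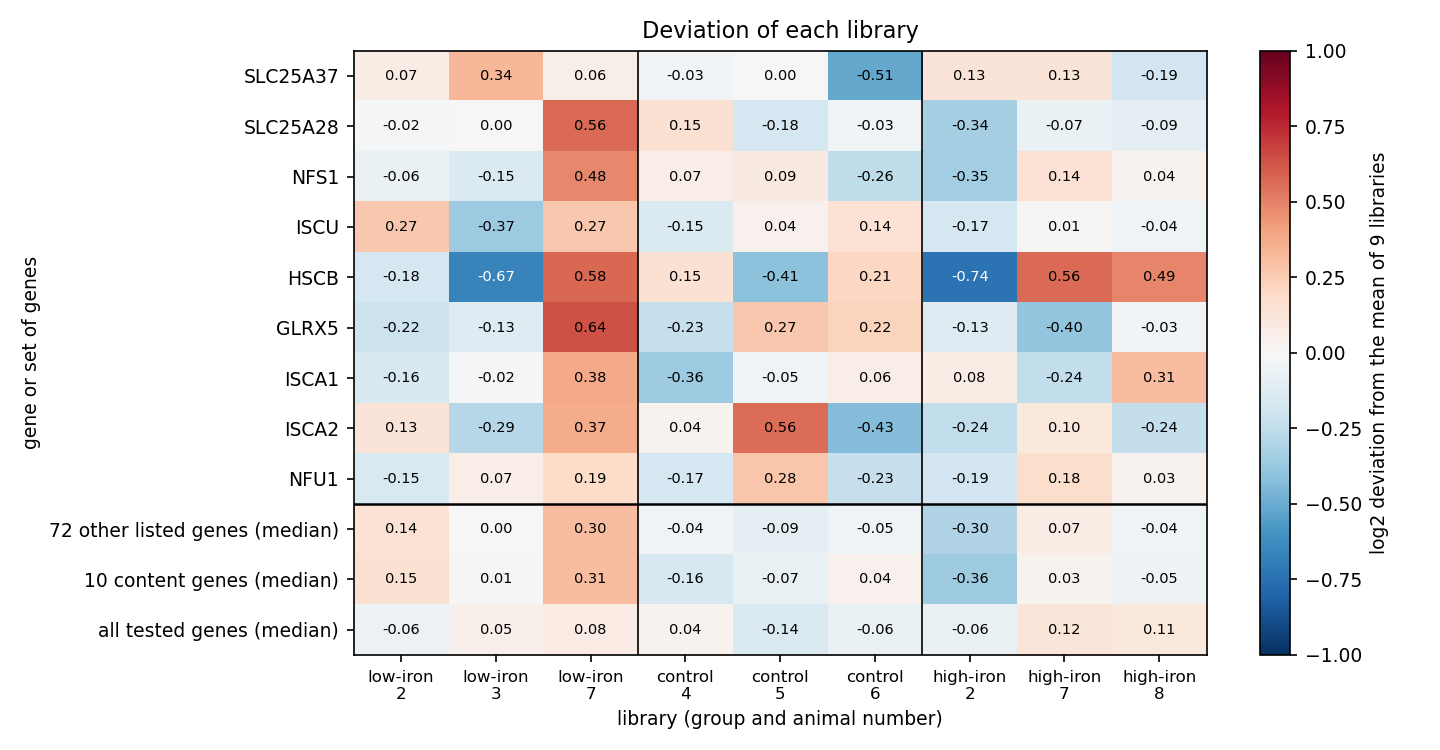
Deviation of each library (columns, by group and animal number) from the mean of the 9 libraries, in log2 units, for each member and as medians of 72 other listed genes, of the 10 mitochondrial content genes among them and of all genes tested. Low-iron animal 7 is above 0 in all 9 member rows (median 0.38), and high-iron animal 2 is below 0 in 7 of them (median -0.19).

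Markers of other cells were summed as background to these values. The 10 red cell precursor markers, which include HBB, HBA1 and ALAS2, summed to 551 to 2817 FPKM in the low-iron, 240 to 1700 in the control and 410 to 991 in the high-iron libraries; 4 of the 10 passed the filter, and KLF1 was listed at 0 throughout. The highest sum, 2817, was in low-iron animal 7. The 7 macrophage markers summed to 299 to 380, 282 to 356 and 423 to 521 FPKM in the same order of groups, and 6 of them (all but MARCO) were higher in high-iron than in control at an unadjusted p under 0.05, beside 4.78% of all genes tested. Neutrophil markers (6 in the table) summed to 6.63 to 9.16, 3.48 to 5.79 and 4.44 to 12.03 FPKM. T and B cell markers (7) summed to 9.22 to 13.3, 10.2 to 19.1 and 14.5 to 27.4 FPKM, and stellate and endothelial markers (8) to 199 to 303, 234 to 266 and 262 to 418 FPKM. Of the stellate and endothelial markers, COL1A1, VWF and PECAM1 were higher in high-iron than in control at that p, with log2 differences of 1.53, 1.68 and 0.53, and COL1A1 was also higher than in low-iron (1.51). STAB2 (0.59) of that list and the neutrophil marker S100A12 (3.03) were higher in low-iron than in control, and the T cell marker CD2 (0.67) was higher in high-iron than in low-iron. VSIG4 (0.54) and CSF1R (0.45) of the macrophage list were higher in high-iron than in low-iron as well. COL1A1, VWF and S100A12 also met the fold criterion. S100A12 was at 0.468, 3.29 and 2.14 FPKM in the low-iron animals and at 0.699, 0 and 0 in the controls. Its groups overlapped, and the size of its difference depends on the 0.1 added to values of 0. No red cell precursor marker that passed the filter had a p under 0.05. All 4 were above 0 in low-iron against control (median log2 difference 0.996, from 0.971 to 1.00), beside 62.7% of all genes tested. Of these markers, 1 did not overlap there, beside 8.34% of all genes. In high-iron against low-iron 0 of 4 were above 0 (median -1.11), and in high-iron against control 1 of 4 (median -0.12). The part of these cells in the members' values was not tested.

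The transferrin receptor TFRC, whose mRNA is stabilised by iron-regulatory proteins when iron is short, was set beside the members as a gene known to follow the iron state of the cell. It was at 87.9, 130 and 28.6 FPKM in the low-iron animals, 6.51, 17.0 and 7.51 in the controls, and 40.6, 15.9 and 18.5 in the high-iron animals. The low-iron values did not overlap the controls, while high-iron animal 2 exceeded low-iron animal 7. Across the 9 libraries, on the log2 scale, SLC25A37 had a Pearson r of 0.70 with TFRC (exact permutation p = 0.0300, adjusted over 9 relations 0.270) and a Spearman rho of 0.63 (exact permutation p = 0.0760, adjusted 0.684). When low-iron animals 2 and 3, whose TFRC levels lay farthest from the median, were left out, r was 0.60, and over deviations from the group means it was 0.46. The other 8 members had r from -0.55 (HSCB) to 0.16 (ISCA1), and 0 of 9 relations passed after adjustment.

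Within the groups a different pair stood out. Over deviations from the group means, SLC25A28 had an r of -0.94 with TFRC and HSCB an r of -0.94, beside pooled values of -0.07 and -0.55. Without low-iron animal 7 these within-group values were -0.90 and -0.93. They are given as descriptions over 9 libraries from 3 groups, with no test, and were singled out after their values were seen.

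Over the 9 libraries, the genes most like SLC25A37 among 11123 genes with a symbol were ACSM5 (Pearson r 0.93), a mitochondrial acyl-CoA synthetase gene, RIOK1 (0.92), a kinase gene of ribosome maturation, and PLBD1 (0.91), a phospholipase B-like gene. The most like ISCU were SDR39U1 (0.95), SLC9A3R1 (0.94), which encodes a membrane scaffold protein, and WDYHV1 (0.93), which encodes an N-terminal glutamine amidase. The highest values with another member were 0.38 for SLC25A37 (with NFU1) and 0.52 for ISCU (with HSCB). These likenesses are over 9 libraries that share their diets, and they were not tested. The nearest genes have the highest of 11123 values of r, and the nearest members the highest of 8. The r values of these picks are therefore not comparable.

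A further 73 genes in 6 lists, 63 of the wider iron-sulfur and lipoate pathways and 10 for mitochondrial content, were read in the same fit, and 72 passed the filter (BRIP1, a DNA helicase gene, did not). In low-iron against control, 62 of 72 were above 0 (median log2 difference 0.16) and 4 were higher and 0 lower at an unadjusted p under 0.05, or 5.56% in all. Of all genes, 2.92% were higher and 0.763% lower at that level. The shares of all genes above 0 were 62.7% in low-iron against control, 65.0% in high-iron against control and 53.6% in high-iron against low-iron. In high-iron against control, 30 of 72 were above 0 (median -0.04) and 1 was higher and 0 lower, or 1.39%, beside 4.78% of all genes higher and 0.811% lower. In high-iron against low-iron, 13 of 72 were above 0 (median -0.22), 5 were lower and 1 higher, or 8.33%, beside 3.12% of all genes lower and 4.03% higher. In high-iron against control, median-of-ratios scaling gave 14 of 72 above 0 (median -0.17), with 0 higher and 2 lower, and leaving out high-iron animal 2 gave 48 of 72 (median 0.062). In the same comparison 21 of 72 were above 0 without high-iron animal 7 (median -0.12). With low-iron animal 7 left out, 51 of 72 were above 0 in low-iron against control and 20 of 72 in high-iron against low-iron. Under median-of-ratios scaling, 54 of 72 were above 0 in low-iron against control (median 0.077), beside 49.6% of all genes. That scaling gave 9 of 72 above 0 in high-iron against low-iron (median -0.27), beside 48.2% of all genes. Low-iron animal 7 held the highest value of 33 of the 72, and high-iron animal 2 the lowest of 29. Each gene named below as higher or lower passed an unadjusted limma p under 0.05, and the adjusted p values printed are over all genes, none of them under 0.573.

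None of the 13 other genes of mitochondrial cluster assembly had a p under 0.05 in any comparison. The median was 0.16 in low-iron against control and -0.17 in high-iron against low-iron. The most abundant were HSPA9, the chaperone that works with HSCB, at 146 ± 12.03 FPKM in the low-iron group, 138 ± 6.74 in the control group and 113 ± 28.3 in the high-iron group, and NDUFAB1, the acyl carrier protein of the NFS1 complex, at 55.9 ± 15.8, 48.0 ± 6.69 and 44.3 ± 8.80 (SD, n = 3 each). HSPA9 was at 90.8 FPKM in high-iron animal 2, the lowest of its 9 values.

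Among 11 genes of cytosolic assembly, CIAO1, a subunit of the complex that targets clusters to proteins, was at 11.09, 11.9 and 12.6 FPKM in the low-iron animals, 9.37, 9.11 and 9.88 in the controls, and 7.88, 9.75 and 9.06 in the high-iron animals. All high-iron values were below all low-iron values, by -0.42 on the log2 scale (SE 0.16, 95% interval -0.77 to -0.06, limma adjusted p = 0.656). MMS19, of the same complex, was lower in the same comparison (log2 difference -0.54, SE 0.22, 95% interval -1.02 to -0.06, limma adjusted p = 0.667), with means of 3.14 ± 0.369 and 4.60 ± 0.531 FPKM. Each missed an unadjusted p under 0.05 in 5 of the 10 settings that left out 1 library or both low-iron animal 7 and high-iron animal 2, among them those without low-iron animal 7, high-iron animal 2 or high-iron animal 8. NDOR1, the reductase that feeds electrons to cytosolic assembly, was higher in low-iron than in control (log2 difference 0.73, SE 0.26, 95% interval 0.16 to 1.30, limma adjusted p = 0.9998), with means of 2.01 ± 0.380 and 1.17 ± 0.162 FPKM, and missed that level only without low-iron animal 3. CIAO2A and GLRX3, the most abundant of the list, had means of 25.2 to 27.1 and 26.7 to 32.6 FPKM and no p under 0.05.

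Of 16 mitochondrial iron-sulfur proteins, only LIAS, the lipoate synthase that NFU1 serves, had a p under 0.05. It was at 8.99, 8.12 and 12.6 FPKM in the low-iron animals, 6.46, 7.71 and 5.82 in the controls, and 9.97, 11.096 and 8.504 in the high-iron animals. Every low-iron and every high-iron value lay above every control value, and the log2 differences were 0.55 (SE 0.21, 95% interval 0.07 to 1.02, limma adjusted p = 0.9998) and 0.56 (SE 0.21, 95% interval 0.09 to 1.03, limma adjusted p = 0.892). Of all genes tested, 8.34% did not overlap in low-iron against control and 10.9% in high-iron against control. Both comparisons share the control animals. Each of them missed an unadjusted p under 0.05 in 4 of the 10 such settings, among them those without control animal 4 or 6. The first also missed it with median-of-ratios scaling and quantile normalization, and the second with median-of-ratios scaling. SDHB, the cluster subunit of succinate dehydrogenase, averaged 184 ± 33.6, 163 ± 15.7 and 156 ± 25.4 FPKM, and ETFDH, which passes electrons from fatty acid oxidation to ubiquinone, 67.0 ± 15.2, 60.3 ± 6.78 and 67.5 ± 10.3 FPKM (SD, n = 3 each), with no p under 0.05.

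Of 15 cytosolic and nuclear iron-sulfur proteins tested, RSAD2, the interferon-induced radical SAM enzyme viperin, was the only one past p under 0.05 and the only gene of the 72 that also met the fold criterion. It was at 2.85, 6.35 and 1.44 FPKM in the low-iron animals, 4.33, 3.16 and 3.89 in the controls, and 4.34, 6.06 and 10.9 in the high-iron animals. High-iron differed from low-iron by 1.12 (SE 0.47, 95% interval 0.07 to 2.16, limma adjusted p = 0.686), yet the groups overlapped. It missed an unadjusted p under 0.05 in 6 of the 10 settings with libraries left out, in the fit with no filter and in that of the 2 groups compared, and the difference was 0.62 without low-iron animal 7 and 0.76 without high-iron animal 8. The purine-degrading XDH averaged 67.2 to 73.6 FPKM and the aldehyde oxidase AOX1 160 to 201 FPKM over the groups, with no p under 0.05.

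In the lipoate list of 7 genes, PDHX, the protein that binds the E3 subunit in the pyruvate dehydrogenase complex, was at 12.1, 13.4 and 13.9 FPKM in the low-iron animals, 9.603, 10.2 and 7.85 in the controls, and 8.67, 9.44 and 9.48 in the high-iron animals. The low-iron group stood above both others without overlap, by 0.51 over control (SE 0.17, 95% interval 0.14 to 0.89, limma adjusted p = 0.9998), and high-iron differed from low-iron by -0.51 (SE 0.17, 95% interval -0.88 to -0.14, limma adjusted p = 0.615). The lipoylated proteins DLST and GCSH averaged 30.2 to 36.1 and 14.7 to 19.9 FPKM over the groups, with no p under 0.05.

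The 10 mitochondrial content genes encode proteins that hold no iron-sulfur cluster. All 10 were above 0 in low-iron against control (median 0.17), 3 of 10 in high-iron against control (median -0.07) and 1 of 10 in high-iron against low-iron (median -0.27). The shares of all genes tested above 0 were 62.7%, 65.0% and 53.6% in the same order of comparisons. CYCS, cytochrome c, was at 48.0, 55.1 and 57.6 FPKM in the low-iron animals, 25.8, 36.7 and 38.1 in the controls, and 36.03, 32.9 and 27.6 in the high-iron animals. It was higher in low-iron than in control by 0.69 (SE 0.20, 95% interval 0.25 to 1.13, limma adjusted p = 0.9998), and high-iron differed from low-iron by -0.74 (SE 0.20, 95% interval -1.18 to -0.30, limma adjusted p = 0.573), without overlap in either comparison. TOMM20, an import receptor of the outer membrane, differed by -0.54 between high-iron and low-iron (SE 0.18, 95% interval -0.93 to -0.14, limma adjusted p = 0.615), with means of 15.3 ± 1.47 and 22.2 ± 0.767 FPKM. HSPD1 and COX4I1, the most abundant, averaged 207 to 250 and 164 to 183 FPKM over the groups, with no p under 0.05.

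**Figure D4:**
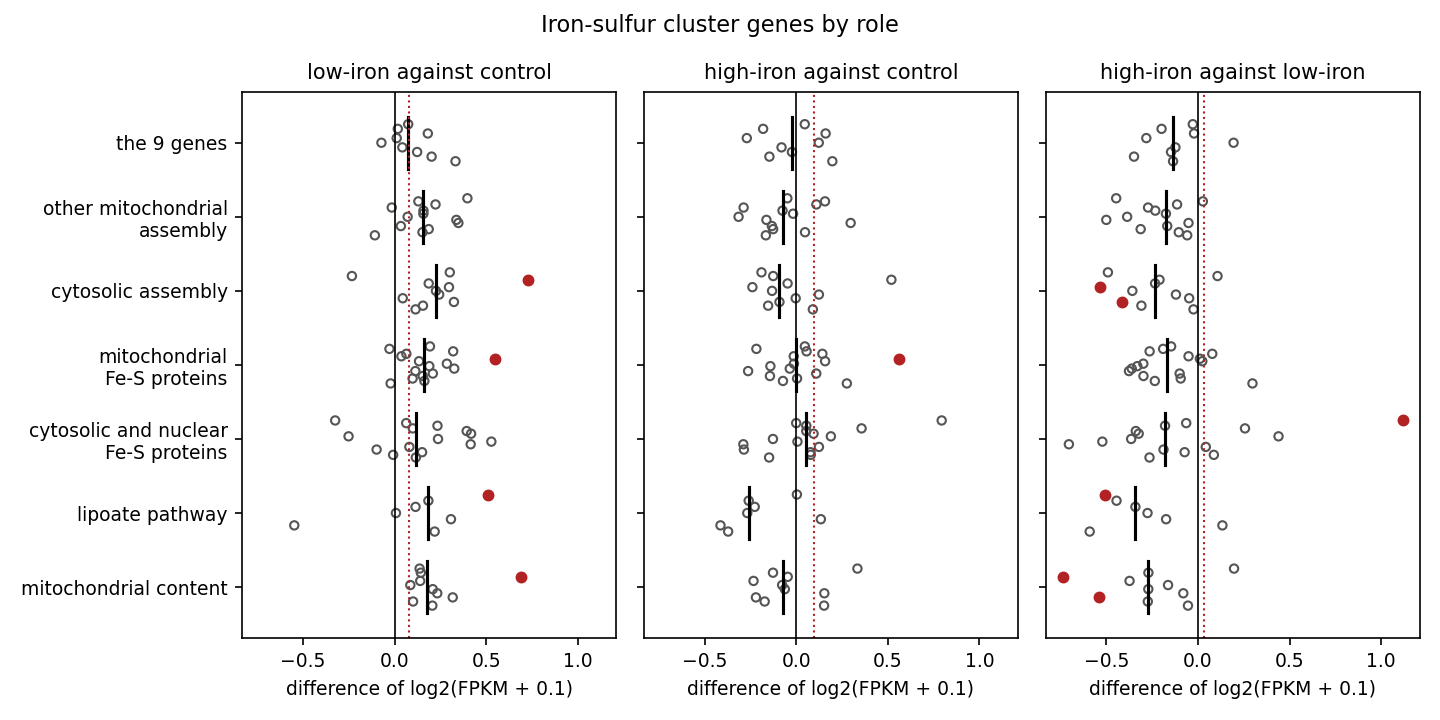
Log2 differences (horizontal axis) of the 9 genes and of the 6 other lists (vertical axis) in the 3 comparisons, with 1 point a gene, filled where the unadjusted limma p was under 0.05, a bar at each list's median and a dotted line at the median of all genes tested. In high-iron against low-iron the members have a median of -0.14 and the mitochondrial content genes one of -0.27, beside 0.03 over all genes tested.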

How the data were processed

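Liver RNA of 9 Wujin piglets was sequenced, 1 library per animal and 3 animals per diet. Groups were taken from the labels' titles and the series' design text, and diets and times from the study's methods. The authors used HISAT2 to align reads to Sscrofa11.1 and StringTie to assemble transcripts. They deposited 1 table of FPKM per gene, which scale fragments to transcript length and to each library's mapped fragments. The depth behind each value is not known from the FPKM, so precision rests on the spread between 3 animals.

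The table names genes by number. Numbers were read as places in NCBI annotation release 106 of Sscrofa11.1, and all 20660 numbered rows fell on protein-coding genes, against 15031 when shifted by 1. The 9 members were found by symbol. Genes with a mean of at least 0.5 FPKM (12584) were fitted with limma 3.58.1 in R 4.3.3, with trend, on log2(FPKM + 0.1) over the 3 groups (6 residual degrees of freedom). p-values were adjusted over all genes by the Benjamini-Hochberg method, and the study's criterion was a fold change of at least 2 with p under 0.05. The study itself used DESeq2 on counts, which are not analysed here. Ratios and relations to TFRC were tested by two-sided exact permutation, computed with numpy 2.4.6, with ranks from scipy 1.17.1. Promoters were read from the RefSeq genome, and the sequences of 3 are printed.

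Members and lists were chosen with earlier results of these data known. Genes named beyond the members were those with an unadjusted p under 0.05 in any comparison and the 2 with the highest mean in each list, TFRC, and the 3 most like SLC25A37 and ISCU. FDX2, UQCRFS1, COX4I1 and HBA1 were matched by annotated product after the table was seen. Alternatives covered the pseudocount, filter, scaling, samples fitted, library weights, a replicate block and leaving out each library.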

Additional observations from a re-analysis of the deposited data

How the results depend on the processing

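No member met the fold and p criterion in any comparison under any alternative run: pseudocounts of 1 and 0.01, no filter or a minimum of 1 FPKM, TPM, quantile normalization, median-of-ratios scaling, fits of the 2 groups compared, array quality weights, the replicate block and leaving out each library. An unadjusted limma p under 0.05 was reached in high-iron against low-iron by SLC25A28 with median-of-ratios scaling (-0.40) and by HSCB without low-iron animal 7 and high-iron animal 2 together, and by no member elsewhere. That scaling moved the median of all genes in high-iron against control from 0.10 to -0.03, so signs are relative to that shift. The animal numbers 2 and 7, shared by low-iron and high-iron, name different pigs. The deviations of same-numbered pigs correlated by 0.02 in both pairs, and the replicate block (consensus correlation 0.20) changed no member's call, with SLC25A28 at -0.37 in high-iron against low-iron. Over all genes, the calls in low-iron against control, high-iron against control and high-iron against low-iron numbered 111, 197 and 194, against 34, 74 and 67 with a pseudocount of 1, 331, 504 and 458 with no filter, 171, 275 and 334 with array weights, and in high-iron against low-iron 333 without low-iron animal 3 and 344 without the pair of libraries named above. In low-iron against control they numbered 186 without low-iron animal 2, 209 without control animal 5 and 171 without control animal 6, and in high-iron against control 296 without control animal 4. Of the 111, 197 and 194 calls, 75, 160 and 127 were higher, against 53 of 100, 96 of 153 and 105 of 185 with median-of-ratios scaling and 52 of 110, 82 of 141 and 91 of 183 after quantile normalization.

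Small differences changed sign, and the cause was not tested. In low-iron against control, median-of-ratios scaling gave -0.039 for ISCU, -0.070 for GLRX5, -0.058 for ISCA2 and -0.0067 for NFU1, and quantile normalization -0.078, -0.082, -0.046 and -0.021. In high-iron against control, NFU1 was at -0.082 and -0.033 under these scalings and HSCB at -0.0044 under the first, while NFS1 was at 0.0024 as TPM and 0.014 with array weights. In high-iron against low-iron, ISCA1 was at 0.012 as TPM, 0.024 after quantile normalization and 0.066 with array weights, and NFU1 at 0.0052 as TPM and 0.024 with array weights. Leaving out each library, or low-iron animal 7 and high-iron animal 2 together (chosen after the data were seen), low-iron against control ranged from 0.17 to 0.42 for SLC25A37, 0.012 to 0.30 for SLC25A28, -0.063 to 0.25 for ISCU, -0.22 to 0.27 for ISCA2, -0.40 to 0.22 for HSCB, -0.073 to 0.24 for NFS1, -0.26 to 0.17 for GLRX5 and -0.019 to 0.24 for NFU1. High-iron against control ranged from -0.14 to 0.12 for NFS1, -0.047 to 0.21 for NFU1, -0.11 to 0.55 for HSCB and -0.42 to 0.071 for ISCA2. High-iron against low-iron ranged from -0.45 to -0.073 for SLC25A28, -0.094 to 0.95 for HSCB, -0.27 to 0.19 for NFS1, -0.15 to 0.13 for ISCA1, -0.12 to 0.15 for NFU1, -0.33 to 0.035 for ISCU and -0.38 to 0.0098 for ISCA2. The high-iron minus low-iron log2 ratio ranged from -0.39 to 0.025 for SLC25A28 to SLC25A37, turning without low-iron animal 7, and from -0.0095 to 0.44 for ISCA1 to ISCA2, turning without high-iron animal 8.

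Of the relations to TFRC, r turned to 0.091 for NFS1, 0.023 for ISCU, 0.22 for GLRX5 and 0.20 for ISCA2 without low-iron animals 2 and 3, to -0.23 for ISCA1 and -0.074 for NFU1 within groups, and to 0.57 for GLRX5 and 0.24 for ISCA2 within groups without low-iron animal 7.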
